A study of Canis rufus and Canis latrans with 56 samples.

Results

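Blood samples of 13 red wolves, a rare canid of the American southeast kept partly in captivity, were divided into CDA-high and CDA-low wolves. The wolves were chosen by the level of 1 probe, that of CDA, in whole blood RNA. CDA encodes cytidine deaminase, a pyrimidine salvage enzyme that is abundant in granulocytes. The 6 wolves above a threshold in CDA level were called CDA-high and the 7 wolves below it CDA-low. They were 6 and 7 of the 14 animals in the series, the other being a coyote, which was given no side (its CDA level was 6.10). A level here is a log2 intensity relative to the mean of its array, and each unit of difference doubles the intensity. The 4 arrays of each animal share its labelled RNA, and each wolf therefore counted once, as its coefficient from a fit of animal and slide. The CDA-high wolves held 24 arrays and the CDA-low wolves 28 of the 56 arrays.

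The blood was drawn into EDTA tubes, mixed with RNAlater, and the RNA was amplified and hybridised to arrays of human probes, and genes are named here after these probes. The study set captive against free-ranging wolves of both sexes. The labels used here do not give status, sex or age for each wolf, so the sides are not known to match any of these. A note of collection in the wild is attached to wolves 11310 and 111080 of the CDA-high side and wolf 11136 of the CDA-low side. It stands only on their arrays of slide 1 and on no wolf array of another slide. Slide 1 held 4 arrays of CDA-high and 3 of CDA-low wolves. Lack of the note therefore does not give the status of a wolf. The sides were made from a measured level and are not treatment groups.

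Granulocytes, chiefly neutrophils, are short-lived phagocytes that crawl towards chemokine signals by rapid assembly and disassembly of actin. Chemokine receptors of these cells act through inhibitory G proteins, and transcription factors of the C/EBP family drive their maturation.

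Among CDA-low wolves the CDA level was 3.32 for 11273, 3.52 for 11274, 3.56 for 10406, 4.21 for 11275, 4.53 for 10632, 4.56 for 11148 and 4.67 for 11136. Among CDA-high wolves it was 5.20 for 10537, 5.61 for 11105, 5.68 for 11206, 5.84 for 11270, 5.85 for 11310 and 6.14 for 111080. The wolves just inside and just outside the threshold were thus 10537 and 11136. With slide effects removed, 4 of 4 arrays of each CDA-high wolf lay above the threshold and 0 of 4 of each CDA-low wolf. As deposited, 1 array of wolf 11148 lay above it. These values chose the sides and were not tested.

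**Figure D1:**
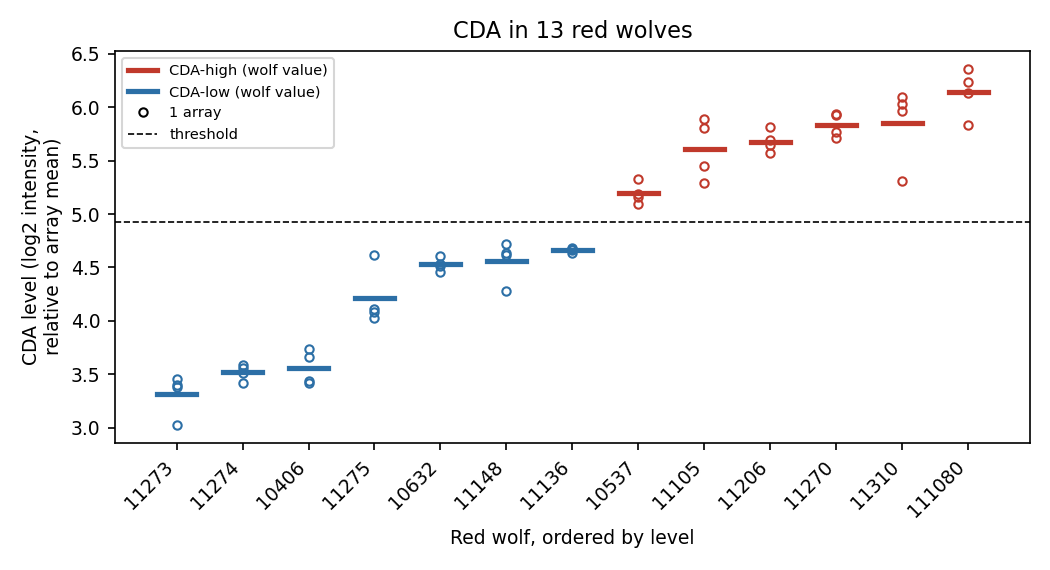
CDA level of each of 13 red wolves (log2 intensity relative to the array mean), ordered from lowest to highest, with 4 arrays per wolf as open circles after removal of slide effects and the wolf value as a bar. No array crosses the threshold, and the nearest wolves to it are 11136 at 4.67 and 10537 at 5.20.

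The label of granulocyte RNA could not be checked with cell markers. Of 30 neutrophil markers 29 were measured, and none had a mean level above 1.26, the mean of CYP1A2. This liver enzyme was the brightest of 49 measured genes of liver and skeletal muscle, which blood is not expected to express, and its level served as the bound for background. The next of these genes, the haem carrier HPX, had a mean level of 0.40, and no neutrophil or monocyte marker exceeded that either. The mean level over the 29 neutrophil markers ranged from -0.08 to 0.00 in the CDA-high wolves and from -0.04 to -0.02 in the CDA-low wolves. The defining genes S100A8, CSF3R and FCGR3B differed between the sides by -0.01, 0.03 and -0.01. Only CXCR1, a chemokine receptor of neutrophils, passed the test, with a lower level in CDA-high wolves (-0.33 against -0.17, adjusted p = 0.0230), and both values are below background. The neutrophil list held 0 calls without wolf 10632, 11105 or 111080 or slide 4, 6 or 7, and 2 without wolf 11270, 11275 or 11310. The sides are therefore named by the CDA probe alone. In whole blood, fewer cells of a type and less RNA per cell cannot be told apart.

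Each of the other 24353 probes was compared between the sides with limma over the 13 wolves, and a probe was called at a Benjamini-Hochberg adjusted p under 0.05. A call says that the sides differ by more than wolves within a side, so that the level of the probe goes with that of CDA. It is not an effect of a condition, and CDA was measured on the same arrays. In all 1006 probes (4.13%) were called, 871 (3.58%) higher and 135 (0.554%) lower in CDA-high wolves. Among the 549 probes above the bound 206 were higher (37.5%) and 0 lower, while 5 were lower at an unadjusted p under 0.05. With the lower bound set by HPX, chosen after seeing the data, 569 of 2073 probes were higher (27.4%) and 0 lower. Of 16120 genes, each represented by its brightest probe, 825 were called (5.12%), 730 higher (4.53%) and 95 lower (0.589%). Of the 425 genes above the bound 178 were called (41.9%), and 0 of these were lower. The bound was set against the mean over all 13 wolves, so a gene can lie above it through its CDA-high levels alone. The count of each gene list below is to be read beside these shares. Calls that are all higher are thus the general state above the bound. The median difference of the 549 probes above the bound was 0.19, against -0.03 over all probes. The levels of both sides did not overlap for 160 of the 549 (29.1%), each of them higher in CDA-high wolves.

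The array scaling bears on these counts. The SD over probes of a wolf's arrays was 0.48 to 0.57 in CDA-high and 0.37 to 0.54 in CDA-low wolves (exact permutation test, two-sided, p = 0.0338). Their 95th percentile was 0.61 to 0.87 and 0.38 to 0.85 (exact permutation test, two-sided, p = 0.195), lowest in wolf 11136. When all arrays were given the same distribution by quantile normalization, 92 probes above the bound were higher and 39 lower in CDA-high wolves, and their median difference was -0.16. With arrays scaled to 1 SD there were 121 and 23, with a median of -0.11. The part of signal range in these differences was not tested beyond this. For genes named by the rule given under processing, a call that ended under a scaling is given beside the gene. For genes named after their values were seen it is not given, except where stated. The 135 lower calls were small and dim: their largest difference was -0.26, and no mean level of a side exceeded 0.27. With arrays centred on the median there were 28.

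**Figure D2:**
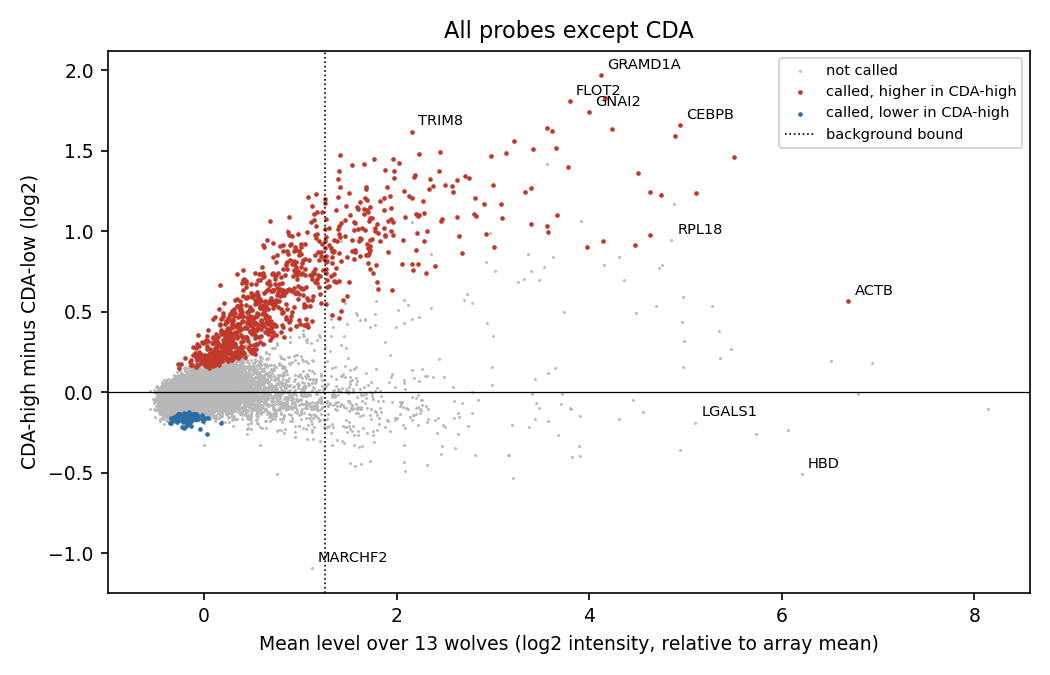
Difference between CDA-high and CDA-low wolves (log2) against the mean level over 13 wolves (log2 intensity relative to the array mean) for 24353 probes, with called probes in colour and the background bound as a dotted line. Called probes right of the bound lie on the upper side only, 206 of 549, and the 135 lower calls lie left of it.

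The label of the split also names CEBPB and FLOT2. CEBPB encodes a C/EBP transcription factor of myeloid cells. Its lowest, median and highest levels were 5.09, 5.75 and 6.65 in CDA-high wolves and 3.62, 4.22 and 4.53 in CDA-low wolves. The sides did not overlap, and the highest level was that of wolf 11310. The difference was 1.66 (SE 0.27, a 3.15-fold higher intensity, adjusted p = 6.39e-05) and ran from 1.11 to 2.33 within the 7 slides. It was 1.17 after quantile normalization (adjusted p = 0.0173) and 0.89 with arrays scaled to 1 SD, where the call ended (adjusted p = 0.229).

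FLOT2 encodes flotillin-2, a scaffold protein of membrane rafts. Its levels were 4.14, 4.65 and 5.49 on the high side and 2.59, 2.92 and 3.44 on the low side. All 6 CDA-high wolves lay above all 7 CDA-low wolves. The difference was 1.81 (SE 0.27, adjusted p = 2.66e-05), and it stayed called at 1.20 and 1.19 under the 2 scalings. CEBPB and FLOT2 were proposed as companions of CDA with results of these data in view, so their calls are no independent support for the split.

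Of C/EBP and other myeloid transcription factors, CEBPB included, 5 of 18 measured were called, all higher in CDA-high wolves. Above the bound 3 of 3 were called, namely CEBPB, KLF6 and MAFG. Besides CEBPB, the 5 called genes held BCL6, a repressor, and KLF6, a zinc finger factor of early responses. The others were MAFG, a small leucine zipper partner, and KLF2, a factor of resting blood and vessel cells. BCL6 stood at 0.82, 1.84 and 2.22 against 0.19, 0.50 and 0.95 (lowest, median and highest; difference 1.21, SE 0.16, adjusted p = 4.64e-06). Its lowest CDA-high wolf lay within the range of the CDA-low wolves. BCL6 was named through its CDA-high mean of 1.74, while its CDA-low mean of 0.53 lay below the bound. KLF6 stood at 1.30, 1.79 and 2.32 against 0.52, 0.84 and 0.94, without overlap (difference 1.08, SE 0.14). MAFG stood at 2.07, 2.52 and 3.36 against 1.14, 1.47 and 1.71, also without overlap (1.07, SE 0.19). The other C/EBP genes did not pass: CEBPA differed by 0.10, CEBPD by -0.06 and CEBPE by -0.02. SPI1, the PU.1 factor of myeloid cells, differed by 0.04, at a mean level of 0.19 in CDA-high wolves.

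The largest difference of all named genes was that of GRAMD1A, which carries cholesterol from the plasma membrane to the endoplasmic reticulum. It stood at 4.63, 5.15 and 5.84 in CDA-high wolves and at 2.62, 3.57 and 3.63 in CDA-low wolves. The lowest CDA-high wolf lay above the highest CDA-low wolf. The difference was 1.97 (SE 0.28, 3.91-fold, adjusted p = 1.41e-05), between 1.78 and 2.22 within the 7 slides, and 1.38 and 1.34 under the 2 scalings. With FLOT2 it belonged to the list of membrane raft and vesicle coat genes. In this list 6 of 30 measured members were called, all higher, beside 5.12% of all genes. The list held 4 calls under each scaling. As deposited, 4 of 4 members above the bound were called, beside 41.9% of genes there. Those 4 were GRAMD1A, FLOT2, RAB11A, a GTPase of recycling vesicles, and CLTA, a clathrin light chain (difference 0.57). The call of CLTA ended under both scalings. STXBP2, a syntaxin partner needed for granule release, had a mean over all wolves below the bound. STXBP2 stood at 1.07, 1.20 and 1.61 against 0.18, 0.36 and 0.72, without overlap (difference 0.91, SE 0.10, adjusted p = 3.04e-06), the CDA-low mean of 0.37 being at background by both bounds. RAB11A differed by 0.80 (SE 0.19), and its call ended after quantile normalization (0.36, adjusted p = 0.391) and with arrays scaled to 1 SD (0.45, 0.271). The median difference of the 4 was 1.30, against 0.40 over 425 named genes above the bound.

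GNAI2 encodes the alpha subunit of the inhibitory G protein behind chemokine receptors. It stood at 4.40, 5.03 and 5.23 in CDA-high wolves and at 2.48, 3.37 and 3.70 in CDA-low wolves. The sides did not overlap, and wolf 11136 was the lowest. The difference was 1.74 (SE 0.27, 3.33-fold, adjusted p = 3.99e-05), with a range of 1.46 to 2.08 within slides and 1.14 and 1.15 under the 2 scalings. Of the chemotaxis and G protein list 5 of 32 measured members were called, all higher, beside 5.12% of all genes. Above the bound 3 of 4 were called, beside 41.9% of genes there. RHOG, a GTPase of membrane ruffles, differed by 1.34 (SE 0.23) and CDC42, a GTPase of filopodia, by 1.10 (SE 0.21). The call of CDC42 ended after quantile normalization (0.63, adjusted p = 0.161) and with arrays scaled to 1 SD (0.72, 0.127), while RHOG was kept under each setting tried. GNB2, a beta subunit of G proteins, stood at 1.08, 1.65 and 2.13 against 0.31, 0.61 and 0.93 without overlap (difference 1.00, SE 0.13, adjusted p = 6.33e-06). GNB2 was named through its CDA-high mean of 1.61, while its CDA-low mean of 0.61 lay below the bound. DOCK2, which activates Rac in migrating white cells, differed by 0.56 (SE 0.10), and its call ended after quantile normalization.

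Actin regulators were the list with the second most calls, 16 of 44 measured members, all higher, with 10 of 12 above the bound against 41.9% (178) of the 425 named genes there. The median difference of the 12 was 1.32. LASP1, an actin-bundling adaptor, stood at 4.72, 5.07 and 5.57 in CDA-high wolves and at 2.95, 3.61 and 3.91 in CDA-low wolves. The sides were apart, with a difference of 1.63 (SE 0.27, 3.10-fold, adjusted p = 8.25e-05). PFN1, which feeds actin monomers to growing filaments, stood at 5.54, 5.68 and 6.07 against 3.67, 4.17 and 4.67, again without overlap (difference 1.59, SE 0.24). CORO1A, a coat protein of the white cell cortex, stood at 3.85, 3.97 and 4.59 against 1.93, 2.49 and 2.94 (1.56, SE 0.25). The CDA-high and CDA-low wolves did not overlap for CORO1A either, and wolf 111080 was the highest for CORO1A.

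CFL1, which severs actin filaments, was more scattered. It stood at 3.88, 4.45 and 5.33 against 0.64, 2.93 and 4.01, and the lowest value was that of wolf 11136. The sides overlapped by 1 wolf on each (difference 1.62, SE 0.37, adjusted p = 0.00383). ARPC2, a subunit of the branching complex Arp2/3, stood at 2.84, 3.94 and 4.12 against 1.53, 2.30 and 3.20 (difference 1.47, SE 0.27), and wolf 10537 fell among the CDA-low wolves. A second ARPC2 probe with a mean level of 1.64 differed by -0.05, so that the probes of this gene disagreed. The call ended with arrays scaled to 1 SD for LASP1, PFN1, CFL1 and ARPC2 (adjusted p = 0.126, 0.218, 0.139 and 0.106), and after quantile normalization for CFL1 and ARPC2 (0.125 and 0.0752). The actin list kept 7 calls after quantile normalization and 5 with arrays scaled to 1 SD, and without wolf 11136 it held 16. ACTB, cytoskeletal actin, stood at 6.87, 6.99 and 7.18 against 6.17, 6.46 and 6.62 (difference 0.57, SE 0.15, adjusted p = 0.0259). The call of ACTB ended after quantile normalization (0.43, adjusted p = 0.226), and its direction turned with arrays scaled to 1 SD (-0.51, adjusted p = 0.475). It also ended without wolf 11105, 11206, 11270 or 11310, each on the high side, at adjusted p values between 0.0574 and 0.103, and without slide 1, 5 or 7.

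**Figure D3:**
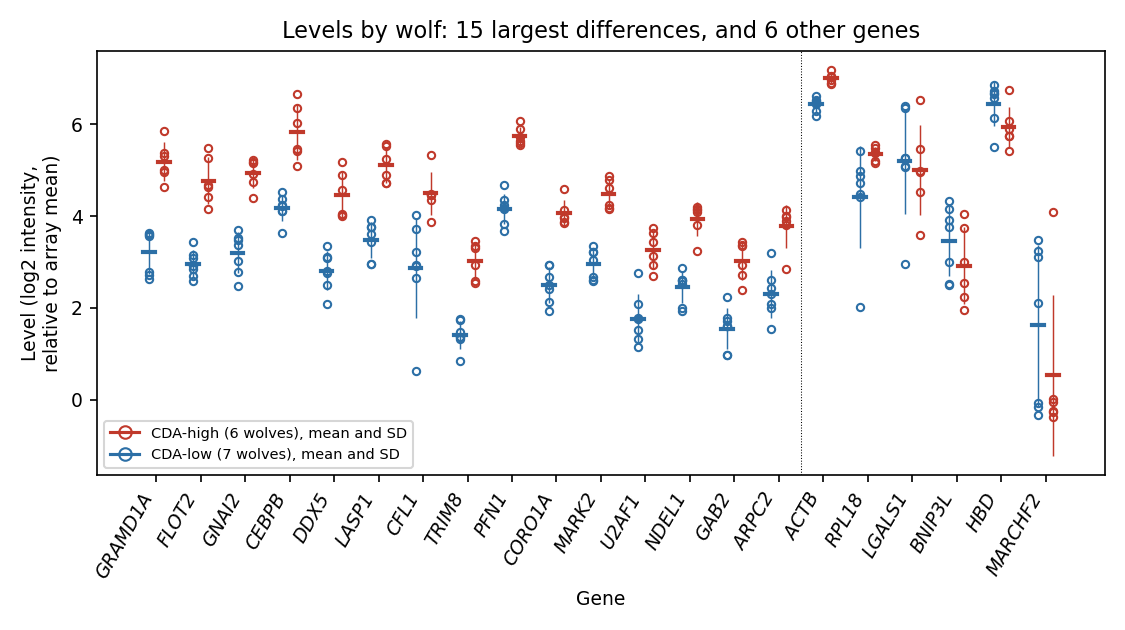
Levels (log2 intensity relative to the array mean) of the 15 genes with the largest difference and, right of the dotted line, of 6 other genes, with 1 circle per wolf, a bar for the mean and a line for the SD of each side. For GRAMD1A, FLOT2, GNAI2 and CEBPB the 6 CDA-high wolves lie above the 7 CDA-low wolves, while the sides mix for LGALS1, BNIP3L, HBD and MARCHF2.

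Signalling genes of Fc receptors and adaptors were called in 3 of 24 measured members, all higher, beside 5.12% of all genes. The list held 5 calls without slide 5 and 2 under each scaling. GAB2, an adaptor that recruits PI3 kinase, stood at 2.38, 3.14 and 3.43 in CDA-high wolves and at 0.97, 1.61 and 2.23 in CDA-low wolves. The sides did not overlap (difference 1.48, SE 0.23, adjusted p = 3.25e-05). PLCG2, a phospholipase downstream of Fc receptors, differed by 0.55 (SE 0.12) and FCER1G, the Fc receptor gamma chain, by 0.45 (SE 0.09), at mean levels of 1.04 and 0.52 in CDA-high wolves. The adaptor TYROBP differed by 0.17 (adjusted p = 0.319), and PTPN6, a phosphatase that restrains these receptors, by -0.10 (SE 0.21, adjusted p = 0.868). In the phagocyte NADPH oxidase, the enzyme of the respiratory burst, 0 of 8 measured subunits were called in limma, 0 had an unadjusted p under 0.05, and none lay above the bound. Its median difference was 0.02.

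TRIM8, a ubiquitin ligase, had the smallest adjusted p of the 15 genes with the largest difference. It stood at 2.55, 3.12 and 3.45 against 0.85, 1.37 and 1.76, and the difference was 1.62 (SE 0.21, adjusted p = 3.70e-06). MARK2, a kinase of microtubule-associated proteins, stood at 4.16, 4.43 and 4.88 against 2.60, 3.04 and 3.34 (1.52, SE 0.26). A second MARK2 probe agreed, with a difference of 1.51. NDEL1, a dynein regulator, stood at 3.23, 4.12 and 4.19 against 1.93, 2.60 and 2.87 (1.49, SE 0.25). None of the 3 overlapped between the sides, and their calls were kept under both scalings.

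Among genes of nucleotide and NAD salvage, the chemistry to which CDA belongs, 3 of 33 measured members were called, all higher. The share over all genes was 5.12%. NAMPT, which makes the NAD precursor NMN, stood at 1.35, 2.32 and 3.06 against 0.25, 0.78 and 1.58 (difference 1.41, SE 0.21, adjusted p = 2.07e-05). GGH, a lysosomal enzyme that trims folates, stood at 5.24, 5.84 and 6.07 against 3.29, 4.57 and 5.82 (1.24, SE 0.29, adjusted p = 0.00586). For both genes 1 or more wolves of each side lay within the range of the other. The call of GGH ended after quantile normalization (0.75, adjusted p = 0.251) and with arrays scaled to 1 SD (0.36, 0.798), that of NAMPT under neither. HPRT1, the purine salvage enzyme, differed by 0.36 (SE 0.07), and UPP1, uridine phosphorylase, by -0.07 (adjusted p = 0.870). Of the lysosomal list 4 of 26 were called, all higher, among them GGH, the membrane protein LAMP2 (0.92, SE 0.17) and the protease CTSC, which activates granule proteases (0.49, SE 0.08). LAMP2 lost its call after quantile normalization (adjusted p = 0.129). The mean of LAMP2 and that of CTSC over all wolves lay below the bound. Of the adhesion list 4 of 22 were called, the integrin ITGB2 (0.23), EMP3 and CD63 higher and the integrin ITGB1 lower (-0.15), and 2 to 4 when 1 wolf or slide was left out. The adhesion list held 1 call under each scaling. CD63, a membrane protein of granules, differed by 0.41 (SE 0.12, adjusted p = 0.0363), and its mean over all wolves lay below the bound. The call of CD63 ended after quantile normalization (0.14, adjusted p = 0.798), with arrays scaled to 1 SD (0.22, 0.558) and without 1 of wolves 10406, 111080, 11206, 11270, 11273, 11274 or 11275 (adjusted p between 0.0611 and 0.104), or without slide 1 or 6. EMP3, a membrane glycoprotein, stood at 2.64, 3.15 and 4.22 against 0.43, 2.17 and 2.55, without overlap (1.28, SE 0.29, adjusted p = 0.00335). Its lowest wolf was 11136, and its call ended after quantile normalization (0.84, adjusted p = 0.123) and with arrays scaled to 1 SD (0.93, 0.0892).

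Splicing factors had the most calls of any list, 18 of 42 measured members, all higher, beside 5.12% of all genes. Above the bound 10 of 11 were called, beside 41.9% of genes there, at a median difference of 1.10. DDX5, an RNA helicase, stood at 4.00, 4.31 and 5.18 against 2.08, 2.80 and 3.34, without overlap (difference 1.64, SE 0.28, 3.12-fold, adjusted p = 0.000116). U2AF1, which recognises the end of introns, stood at 2.69, 3.29 and 3.73 against 1.14, 1.75 and 2.77 (1.49, SE 0.25), with 1 wolf of each side inside the range of the other. HNRNPU, a nuclear matrix RNA-binding protein, differed by 1.40 (SE 0.25) and SRSF2, an activator of exons, by 1.26 (SE 0.22), both without overlap. The list held 11 calls after quantile normalization, 15 with arrays scaled to 1 SD and 19 without wolf 11136. Of these 4 genes HNRNPU lost its call after quantile normalization (0.82, adjusted p = 0.0542) and with arrays scaled to 1 SD (0.78, 0.192).

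Proteasome subunits were called in 9 of 28 measured members, all higher, beside 5.12% of all genes. Above the bound 4 of 4 were called, beside 41.9% of genes there, with a median difference of 1.02. The core subunits PSMA1, PSMB3 and PSMB5 differed by 1.22 (SE 0.21), 1.09 (SE 0.24) and 0.95 (SE 0.16), and the lid subunit PSMD11 by 0.80 (SE 0.19). PSMB3 stood at 3.04, 3.46 and 3.63 against 1.65, 2.29 and 2.91, and PSMB3 and PSMD11 alone of the 4 did not overlap. After quantile normalization the calls of PSMA1, PSMB3, PSMB5 and PSMD11 ended, at differences of 0.78, 0.58, 0.61 and 0.35 (adjusted p = 0.066, 0.298, 0.0896 and 0.406). With arrays scaled to 1 SD those of PSMB3 and PSMD11 ended (0.62 and 0.45, adjusted p = 0.333 and 0.238). The proteasome list held 3 calls after quantile normalization and 6 with arrays scaled to 1 SD. Translation factors were called in 9 of 35, of which 8 were higher and 1 lower, with 6 of 10 above the bound at a median of 0.97. The lower one was EIF4A1, dim on both sides (-0.35 and -0.19). EIF4G2, a scaffold of cap-independent initiation, differed by 1.27 (SE 0.25), EIF4A2, a helicase, by 1.24 (SE 0.27) and EIF3L by 1.06 (SE 0.20). EIF4G2, EIF4A2 and EIF3L lost their calls after quantile normalization (0.72, 0.69 and 0.59, adjusted p = 0.113, 0.180 and 0.0986) and with arrays scaled to 1 SD (0.70, 0.70 and 0.67, adjusted p = 0.256, 0.336 and 0.0649). After quantile normalization 0 translation factors were called. With arrays scaled to 1 SD 2 were called, 1 higher and 1 lower in CDA-high wolves, both above the level of HPX. The elongation factor EEF1A1 stood at 3.26, 3.47 and 3.79 against 0.34, 2.77 and 3.23, without overlap, and did not pass (0.99, SE 0.32, adjusted p = 0.0858). Its lowest wolf was 11136.

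Ribosomal proteins had few calls for their brightness. Of 69 measured members 2 were called, and of 14 above the bound 1, although all 14 differences were above 0 with a median of 0.57 and the sides did not overlap for 7. RPL27 differed by 0.90 (SE 0.27, adjusted p = 0.0448), RPL10A by 0.84 (0.0604), RPS9 by 0.79 (0.0632) and RPL18 by 0.94 (0.147). The call of RPL27 ended under 16 settings, among them both scalings and the omission of any of wolves 11105, 111080, 11148, 11206, 11270, 11273, 11274, 11275 and 11310 (adjusted p between 0.0519 and 0.146). RPS9 passed without wolf 11136 (0.80, adjusted p = 0.0338). RPL18 was lowest in wolf 11136, at 2.03 against 4.42 in the next CDA-low wolf, and without wolf 11136 the list held 4 calls; over single omissions it held 1 to 4. Respiratory chain genes were called in 6 of 71, all higher, beside 5.12% of all genes, and in 4 of 8 above the bound, beside 41.9% of the named genes there, with a median of 0.69. These shares are near the background. NDUFV2 of complex I stood at 2.14, 2.70 and 2.96 against 0.89, 1.29 and 1.78 (1.27, SE 0.19, adjusted p = 2.03e-05). ATP5F1A of the ATP synthase differed by 1.11 (SE 0.23) and UQCRC1 of complex III by 0.74 (SE 0.12). These 3 did not overlap between the sides. ATP5F1A lost its call after quantile normalization (0.59, adjusted p = 0.182) and with arrays scaled to 1 SD (0.64, 0.213). ATP5F1B, the catalytic subunit of the synthase, differed by 0.79 (adjusted p = 0.0865) and passed without wolf 11136 (0.89, adjusted p = 0.0148). Both scalings left 2 calls in this list.

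Glycolysis genes were called in 5 of 24, of which 4 were higher, and in 3 without slide 6. GAPDH stood at 4.82, 5.26 and 5.72 against 2.99, 3.95 and 5.05 (1.36, SE 0.29, adjusted p = 0.00228) and TPI1, triose phosphate isomerase, at 1.64, 2.09 and 3.05 against 0.34, 0.80 and 1.76 (1.23, SE 0.21). GAPDH lost its call after quantile normalization (0.81, adjusted p = 0.182) and with arrays scaled to 1 SD (0.59, 0.605). The neuronal aldolase ALDOC differed by 0.08 (adjusted p = 0.825). The lower member was ENO1, whose probe was below background on both sides (-0.24 and -0.10). Among autophagy genes 3 of 22 were called, BECN1 and GABARAP higher and ATG13 lower (-0.25 against -0.10, both dim). BECN1, a regulator of autophagosome formation, stood at 1.56, 1.96 and 2.31 against 0.82, 1.19 and 1.37 (0.84, SE 0.15), without overlap, and its call ended after quantile normalization (0.48, adjusted p = 0.0524). GABARAPL2 differed by -0.10 and ATG16L1 by 0.03 (adjusted p = 0.917 and 0.966).

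Stress and activation genes were mixed, and their counts stand beside 5.12% of all genes. Of immediate-early genes 3 of 21 were called, all higher: KLF6, JUND (4.85, 5.28 and 5.76 against 3.47, 4.09 and 4.60; difference 1.24, SE 0.26) and PPP1R15A. JUND lost its call after quantile normalization (0.60, adjusted p = 0.235) and with arrays scaled to 1 SD (0.52, 0.557). EGR1 and FOS differed by 1.00 (SE 0.50) and 0.94 (SE 0.38) and did not pass (adjusted p = 0.330 and 0.205). EGR1 stood at 5.48 in wolf 11310 and at 1.83 in the next CDA-high wolf. Of interferon genes 1 of 29 was called, OAS2, an antiviral RNA sensor, at 0.25, 1.05 and 2.99 against 0.08, 0.17 and 0.34 (1.06, SE 0.23, adjusted p = 0.00212). All 7 CDA-low levels of OAS2 lay below both background bounds. Its CDA-high values were widely spread, and its call ended without an intensity trend (adjusted p = 0.0665), and the mean over all probes of OAS2 differed by 0.36 (adjusted p = 0.00969). OAS1 differed by 0.21 (adjusted p = 0.714). Its direction turned under both scalings and with the continuous CDA level in place of the side. Of glucocorticoid-responsive genes 2 of 18 were called, BCL6 and KLF9, the latter at 1.09, 1.35 and 2.42 against 0.39, 0.59 and 0.81 without overlap (0.92, SE 0.14). Heat shock genes gave 0 of 22 calls in limma, and 3 had an unadjusted p under 0.05. The chaperones HSPA8 and DNAJA1 differed by 0.70 and 0.57 (adjusted p = 0.232 and 0.131), and DNAJA1 passed without wolf 11275 (0.71, adjusted p = 0.0315). HSPH1 differed by -0.17 (adjusted p = 0.737). In the inflammation list 1 of 32 was called, SOD2, the mitochondrial superoxide dismutase (0.54, SE 0.10). It was also the 1 call among 21 genes of oxidative stress defence, while the cytokine gene IL10 differed by -0.14 (adjusted p = 0.737).

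**Figure D4:**
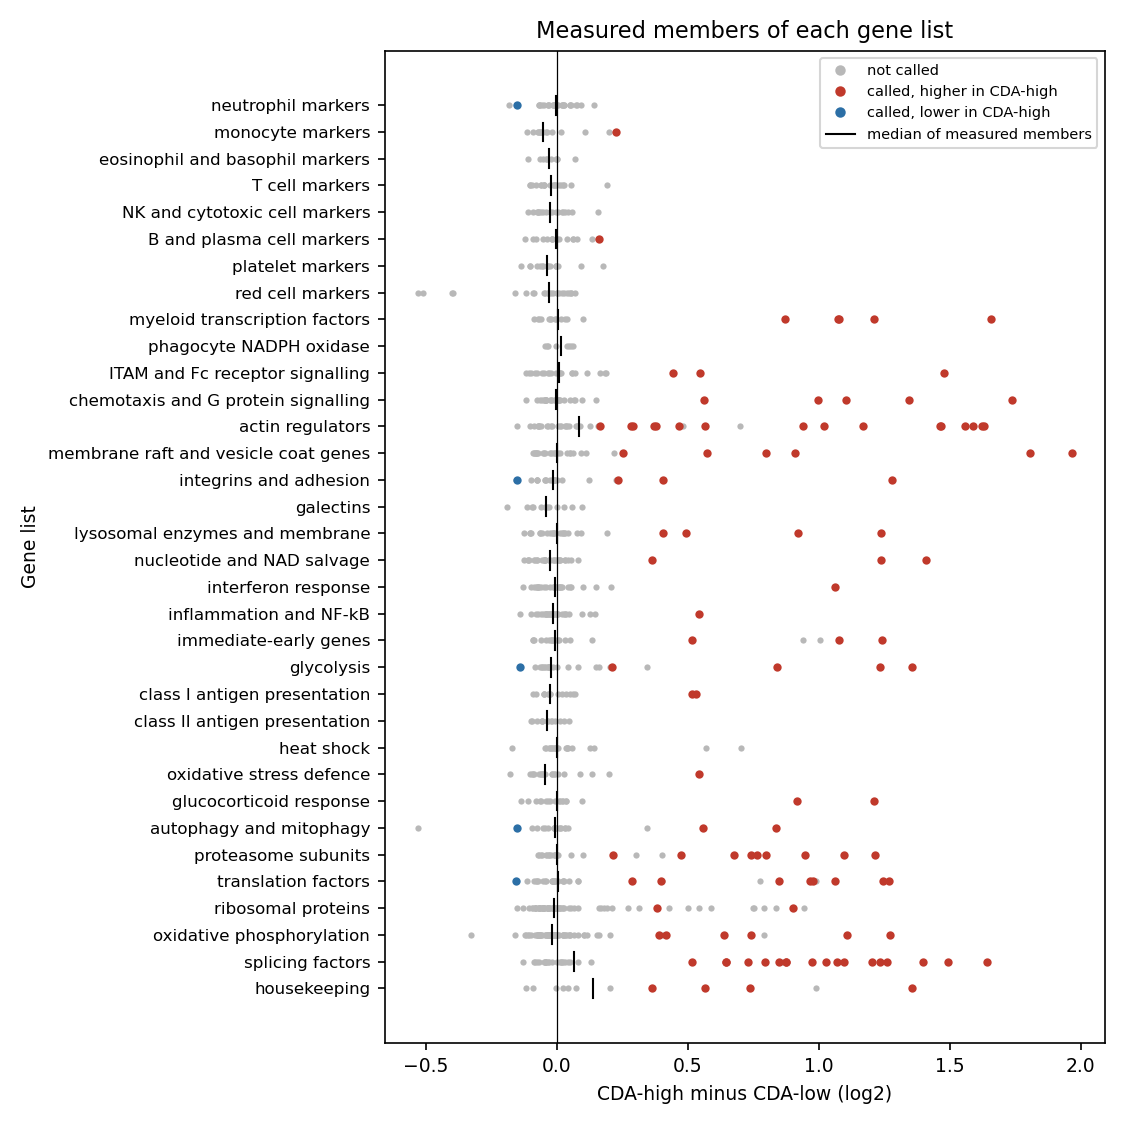
Difference between CDA-high and CDA-low wolves (log2) of each measured member of 34 gene lists, with called members in colour and the median of each list as a black tick. Called members on the right are frequent among actin regulators (16 of 44) and splicing factors (18 of 42). The markers of T cells, NK cells, platelets and red cells hold none. Of these, 0 T cell, 0 NK and 1 platelet marker lay above the background bound.

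Markers of other blood cells were called at shares near the 5.12% of all genes or below it. For T cells and for NK and cytotoxic cells 0 markers lay above the bound. Their lack of calls therefore cannot show that these cells were alike on both sides. In limma 0 were called among 20 T cell, 19 NK and cytotoxic, 17 platelet, 10 eosinophil and basophil and 25 red cell markers, and 2, 3, 4, 1 and 4 of these had an unadjusted p under 0.05. At an adjusted p under 0.05, 1 of 15 monocyte markers (KLF4, 0.23) and 1 of 17 B and plasma cell markers (POU2AF1, 0.16) were called higher, both below the bound. The monocyte list held 0 calls without wolf 11148, 11206, 11273, 11274 or 11310 or slide 1, 3 or 5, and 2 without wolf 10537 or 11105. The B cell list held 0 without wolf 10537, 10632, 111080, 11206, 11270, 11274 or 11275 or slide 1, 3, 5, 6 or 7. The mean level over T cell markers ranged from -0.03 to 0.05 in CDA-high and from 0.00 to 0.06 in CDA-low wolves. For monocyte markers it ranged from -0.17 to -0.05 and from -0.13 to -0.07. Of platelet markers only PF4 lay above the bound, with a difference of -0.0025 (adjusted p = 0.997). Class I antigen presentation had 2 of 17 calls, both higher and both below the bound, the chaperone PDIA3 (0.53) and the immunoproteasome subunit PSMB10 (0.52). The class I list held 1 call under each scaling. Class II had 0 of 14, with 1 at an unadjusted p under 0.05.

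Red cell genes above the bound lay mostly below 0, without a call. Of these 5 genes 4 differed below 0, with a median of -0.40, while 62.7% of all probes above the bound differed above 0. Over all 25 measured red cell genes the median was -0.03, as over all probes. Over the 10 above the level of HPX it was -0.10. HBD, a globin, stood at 5.41, 5.82 and 6.73 in CDA-high wolves and at 5.49, 6.65 and 6.85 in CDA-low wolves (difference -0.51, SE 0.23, adjusted p = 0.258), and it was called lower without wolf 11136 (-0.67, adjusted p = 0.0451). The red cell list held 1 call without wolf 10632, wolf 11136 or slide 3. BNIP3L, a mitophagy receptor of late red cell precursors, had medians of 2.78 and 3.76 and highest levels of 4.05 and 4.33 (-0.53, SE 0.34, adjusted p = 0.479). The sides overlapped widely for both. HBG1 and HBG2, the fetal globins, each differed by -0.40 (adjusted p = 0.520 and 0.522); these near-identical genes can share signal between their probes. After quantile normalization 4 of 25 red cell genes were called, HBD among them at -0.80 (adjusted p = 0.0144), and 3 with arrays scaled to 1 SD, where HBD was at -1.47 (adjusted p = 0.000207). Whether red cell RNA takes part in the differences of other genes was not tested.

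Of genes whose mean on the higher side was above the bound, 0 were called lower, and the 10 with the smallest p values are given as values. Besides HBD these were MARCHF2, a membrane ubiquitin ligase (-1.09, SE 0.57), BCL2L1, a survival gene of red cell precursors (-0.46), OR10H3 (-0.46), BTN2A2 (-0.44), TMEM40 (-0.43), PIGX (-0.33), DCLK1 (-0.31), SDE2 (-0.31) and FAM177A1 (-0.29). Their adjusted p values lay between 0.199 and 0.359. With arrays on a common distribution 8 of the 10 were called lower, and the same 8 with arrays scaled to 1 SD, the exceptions being MARCHF2 and BCL2L1. MARCHF2 stood at 4.08 in wolf 10537, the CDA-high wolf nearest the threshold, and at 0.01 or lower in the other 5, while the CDA-low wolves ranged from -0.33 to 3.48. Without wolf 10537 MARCHF2 was called, at -1.80 (adjusted p = 0.00972). LGALS1, a galactose-binding lectin, ranged from 3.58 to 6.53 in CDA-high and from 2.95 to 6.39 in CDA-low wolves, with a difference of -0.19 (SE 0.41, adjusted p = 0.867).

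**Figure D5:**
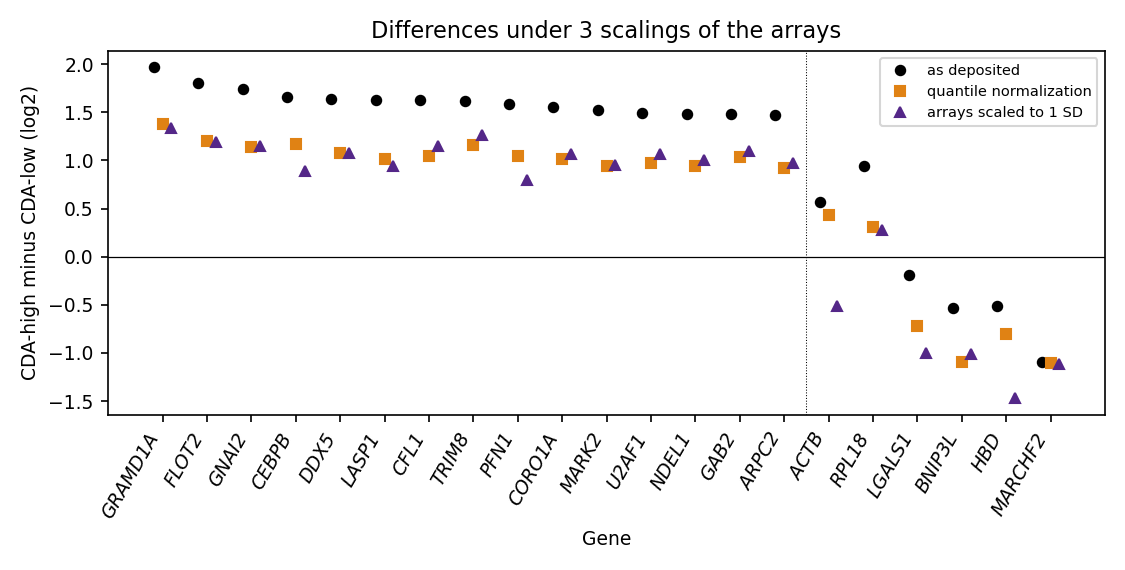
Difference between CDA-high and CDA-low wolves (log2) of the same 21 genes with arrays as deposited, after quantile normalization and with arrays scaled to 1 SD. The 15 genes left of the dotted line stay above 0 under each scaling, ACTB turns from 0.57 to -0.51 with arrays scaled to 1 SD, and HBD moves from -0.51 to -0.80 and -1.47.

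The wolves within a side were not alike. In a principal component analysis of the 549 probes above the bound, from which CDA was left out, the first component held 55.6% of the variance. On it the CDA-high wolves lay between 2.12 (wolf 10537) and 11.9 (wolf 111080) and the CDA-low wolves between -13.9 (wolf 11273) and -1.92 (wolf 11136). The wolves nearest the CDA threshold were thus also the nearest pair across the sides on this component. The second component held 25.0% and set wolf 11136 apart, at 16.4 against 6.86 in the next wolf, 11310. These components were computed from the same arrays as CDA and are a description of the wolves.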

How the data were processed

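The deposited values are log2 intensities of 24354 probes on 56 arrays, centred by the authors on the array median per the labels' design text; the submitters' processing notes name BeadStudio 1.5.0.34. In the table the mean of each array is 0. The sources used here do not state any background subtraction. GEO's platform annotation names 1 gene for 18339 probes (16121 symbols) and none for 6015; a gene was represented by its brightest probe over wolves. The 10 called named genes with more than 1 probe had 17 other probes. Of these, 3 lay above the level of HPX, and 2 of them were called higher. Of the 14 dimmer ones 0 were called higher. No sequence or canid genome was used.

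A fit of animal and slide (7 slides, effects summing to 0) on all arrays gave 1 value per animal. Wolves were compared with limma 3.58.1 in R 4.3.3 (lmFit, eBayes with an intensity trend), and p-values were Benjamini-Hochberg adjusted over all probes but CDA. The number of wolves, 6 against 7, limits the precision. The p-values weigh the difference between sides against the spread of wolves within a side, and they take the wolves as independent. Whether wolves are unrelated is not given.

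Named were CEBPB and FLOT2, the 15 called genes with the largest difference in each direction (filled to 10 by smallest p), and up to 4 members per list with the largest difference, with the mean of the higher side above the bound. C/EBP genes other than CEBPB, SPI1, KLF2, DOCK2, PLCG2, FCER1G, TYROBP, HPRT1, CTSC, PPP1R15A, SOD2, ENO1, EIF4A1, CLTA, ITGB1, ITGB2, GABARAP, ATG13, the neutrophil genes and the called markers below the bound were named after their values were seen. Among called genes named by the rule, BCL6, GNB2, STXBP2, CD63, LAMP2, OAS2 and KLF9 had a mean over all wolves below the bound. They were named through their CDA-high mean alone. KLF6, NAMPT, TPI1, PSMB5, UQCRC1 and BECN1 had a mean over all wolves above the bound but a CDA-low mean below it. These CDA-low means were 0.77, 0.89, 0.94, 0.91, 0.92 and 1.10. The shares above the bound count such genes. Members and lists were chosen with earlier results of these data known. Alternatives were no slide term, other centring and scaling, filters, covariates, a random block and omission of wolves or slides.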

Additional observations from a re-analysis of the deposited data

Results flagged for a closer look

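Within a side, single wolves stood apart from the rest in 17 of 160 combinations of a named gene and a side, by the gap to the nearest wolf relative to the whole range; chance flags about 1 in 20. Wolf 11136 was far from the other CDA-low wolves for 7 genes. It was lowest for CFL1 (0.64), PTPN6 (0.53), EMP3 (0.43), EEF1A1 (0.34) and RPL18 (2.03), and highest for LAMP2 (1.70) and PSMB5 (1.81). Its arrays had the narrowest signal range of all wolves. Of the other CDA-low wolves, 10406 was lowest for LGALS1 (2.95) and 11273 for SRSF2 (1.23).

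Among CDA-high wolves, wolf 10537, the nearest to the threshold, was lowest for ARPC2 (2.84), LAMP2 (1.02), PSMA1 (2.10) and EIF4A2 (3.32) and highest for MARCHF2 (4.08). Wolf 111080 was highest for CORO1A (4.59), wolf 11270 for MAFG (3.36) and wolf 11310 for EGR1 (5.48).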

How the results depend on the processing

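The 1006 calls became 578 after quantile normalization, 648 with arrays scaled to 1 SD, 249 with dim probes left out and 659 with probes above the level of HPX only, the last chosen after seeing that CYP1A2 alone set the planned bound. The 871 higher calls became 501 after quantile normalization and 249 with dim probes left out. The 135 lower calls became 34 without a slide term and 77 after quantile normalization. With arrays centred on the median and the 75th percentile they became 28 and 70. They became 48 with arrays scaled to 1 SD and 73 without an intensity trend. Lower calls were 0 with dim probes left out and 4 above the level of HPX. With the continuous CDA level in place of the side there were 58, and without the wolf nearest the threshold on each side 82. When 1 wolf or slide was left out, calls ranged from 784 to 1146, higher calls from 719 to 966 and lower calls from 65 to 180. The lower calls fell to 77, 65, 87, 82 and 82 without wolves 111080, 11206 and 11270 and slides 3 and 7. Of the calls as reported, 498 were kept after quantile normalization and 599 with arrays scaled to 1 SD. The share of higher calls was 86.6% as reported and 97.4% with arrays centred on the median.

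Of the 48 named genes that were called, 22 kept their side of the threshold under all settings tried on them, 22 lost it after quantile normalization and 20 with arrays scaled to 1 SD, where ACTB turned to -0.51. Differences near 0 changed sign. PF4 was at 0.0028 with wolf arrays alone, 0.024 and 0.0048 with median and 75th percentile centring, 0.13 with the wild note as a covariate and 0.020 with a random block. With the wild note PTPN6, UPP1 and GABARAPL2 were at 0.049, 0.039 and 0.073. LGALS1 was at 0.074 without the wolves nearest the threshold. OAS1 was at -0.27 after quantile normalization, -0.13 with arrays scaled to 1 SD and -0.015 per unit of CDA. ALDOC and ATG16L1 were at -0.0065 and -0.065 without a slide term, -0.18 and -0.48 after quantile normalization, -0.10 and -0.33 with arrays scaled to 1 SD, -0.028 and -0.12 per unit of CDA, -0.037 and -0.21 with the 95th percentile as a covariate, and -0.020 and -0.16 without the wolves nearest the threshold. With 1 wolf or slide left out the ranges were -0.16 to 0.099 for PF4, -0.30 to 0.025 for PTPN6, -0.56 to 0.095 for LGALS1, -0.19 to 0.0097 for UPP1, -0.27 to 0.0086 for HSPH1, -0.23 to 0.10 for GABARAPL2 and -0.11 to 0.15 for ATG16L1. The cause was not tested. No paired analysis was possible because the labels give no replicate numbers that pair wolves across the sides. Signal over background limits all markers of white cells.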

Other observations

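Some genes outside the lists separated the sides more sharply, relative to their spread, than those with the largest difference. They were chosen after their values were seen. FES, a tyrosine kinase of myeloid cells, differed by 0.97 (SE 0.11), FIBP, a fibroblast growth factor binding protein, by 0.92 (SE 0.10) and SNX27, a sorting nexin that returns membrane proteins to the surface, by 0.91 (SE 0.11). The ubiquitin ligase subunits FBXO33 and FBXO11 differed by 1.12 (SE 0.13) and 1.21 (SE 0.15). ACAP1, which inactivates the vesicle GTPase ARF6, differed by 1.42 (SE 0.18), and EFHD2, a calcium-binding protein of the actin cytoskeleton, by 1.37 (SE 0.17). Each was higher in all 6 CDA-high wolves than in all 7 CDA-low wolves, at an adjusted p of at most 3.23e-06 in limma. The highest CDA-low level was 0.80 for FES, 0.66 for FIBP, 0.55 for SNX27, 1.01 for FBXO33, 1.00 for FBXO11 and 1.09 for EFHD2. All of these levels lay below the bound set by CYP1A2, and only that of ACAP1 (1.44) lay above it. DPYSL2, SUCLG1, RUBCNL and TBC1D23 separated the sides within the same limit of adjusted p, also with every CDA-low wolf below the bound.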
